A study of Mus musculus with 8 samples.

Results

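Transcripts of the integrated stress response were measured in the lymph nodes that drain B16 melanomas in mice. The response was represented by 10 genes chosen by name: the transcription factors Atf4, Ddit3 (which encodes Chop) and Atf3, and their targets or regulators Trib3, Chac1, Asns, Sesn2, Ppp1r15a, Psat1 and Slc7a11. These are 10 of the 10543 genes that a kept probe named on the arrays, and a probe was kept when its signal stood above the negative control beads (a detection p below 0.05) on 4 arrays or more of the 8. Of the 17 probes annotated to the 10 genes, 16 were kept, and 5 of the genes had several kept probes. All mice were of the C57BL/6 strain, and the methods describe the animals as females aged 6 to 8 weeks. In the 3M-052 group, a subcutaneous B16 tumor of 30 to 40 mm2 received 1 intratumoral injection of 3M-052, an agonist of the innate RNA sensors TLR7 and TLR8, and in the vehicle group the tumor received the vehicle alone. The draining node was taken on day 4 after the injection, with 4 mice and 4 arrays in each group. Both groups carried a tumor, so no node from a tumor-free or uninjected mouse is among the samples. The labels name tumors as the source of the RNA in 1 protocol and lymph nodes everywhere else, and the marker lists of lymph node stroma, B cells and T cells had a mean log2 intensity over 10 on all 8 arrays, although single markers such as Cr2, Cd4 and Madcam1 were dimmer.

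The integrated stress response begins when a kinase, among them PERK in the endoplasmic reticulum, PKR on double-stranded RNA, GCN2 on uncharged tRNA and HRI on heme shortage, phosphorylates the translation factor eIF2α. General translation then falls while translation of Atf4 mRNA rises, so much of the control of Atf4 lies beyond the level of its transcript, which is what an array reads. Atf4 switches on genes for amino acid synthesis and uptake and, with it, Ddit3, and the products Trib3 and Ppp1r15a (GADD34) feed back on the response. In a lymph node, the related Xbp1 and Atf6 arms of the unfolded protein response are known for their part in antibody-secreting plasma cells.

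Atf4 and its partners of the C/EBP family bind a composite element of the form TGATGNAA. The letters TGATGNAA were searched on both strands (TTNCATCA on the other) in the RefSeq promoter windows of GRCm38.p6, each of 300 bases with 250 before the start site and 50 after it. They were in 5 of the 11 windows of the 10 genes, 1 window in each of 5 genes, in 13 of the 101 windows of the wider Atf4 genes described further on, and in 3.97% of all 32851 windows. The matches are shown because these 5 genes did not move alike on the arrays. The palindrome TGACGTCA, the cyclic AMP response element, was in a window of 1 of the 10 genes, Ppp1r15a, and in 1.79% of all windows. The stretches below run 5′ to 3′ on the strand of the gene, and the capitals mark the matched letters.
Asns (chr6:7693210-7693269, minus strand, match starting at -23): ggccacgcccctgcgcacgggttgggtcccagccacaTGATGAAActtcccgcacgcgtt
Chac1 (chr2:119351023-119351082, plus strand, match starting at -193): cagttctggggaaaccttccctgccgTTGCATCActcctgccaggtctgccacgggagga
Slc7a11 (chr3:50443637-50443696, minus strand, matches starting at -66 and -47): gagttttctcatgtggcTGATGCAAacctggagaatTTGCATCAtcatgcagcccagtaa
Atf3 (chr1:191183410-191183469, minus strand, match starting at -110): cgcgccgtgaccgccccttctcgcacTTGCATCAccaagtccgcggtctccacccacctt
Trib3 (chr2:152344028-152344057, minus strand, match starting at 15): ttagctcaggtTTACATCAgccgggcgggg
Ppp1r15a (chr7:45526269-45526328, minus strand, match starting at -12): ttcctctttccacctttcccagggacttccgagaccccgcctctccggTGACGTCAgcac
Positions count from the annotated start site. A match describes letters in a window and was not tested for binding, and the windows of Atf4, Ddit3, Sesn2, Psat1 and Ppp1r15a had no TGATGNAA on either strand.

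The arrays had 17817 to 19773 detected probes in 3M-052 nodes and 19094 to 20315 in vehicle nodes, of 45281 on each. Across all 19462 kept probes, 546 were higher and 446 were lower in 3M-052 nodes (limma, Benjamini-Hochberg adjusted p under 0.05), which is 5.10% of the probes in either direction. With median centering in place of quantile normalization the split was 570 higher (2.93%) and 298 lower (1.53%). Fat cell markers differed widely between single nodes: their mean log2 intensity was 7.14, 8.06, 5.76 and 7.99 in 3M-052 nodes and 9.14, 10.1, 10.1 and 6.66 in vehicle nodes. The 5 measured melanocyte markers averaged 5.85 to 6.64 in 3M-052 nodes, against 5.95 to 6.65 in 3 of the vehicle nodes and 10.3 in vehicle replicate 3. This mean hides opposite directions: 4 of the 5 had a negative log2 fold change and Gpnmb a positive one (0.86), with 0 called. Dct differed by -2.71 and was detected on 1 of 4 3M-052 arrays and 4 of 4 vehicle arrays. Since whole nodes were measured, fewer cells of a type and less RNA per cell cannot be told apart.

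In the fit by group alone, few of the stress response genes differed between the groups. Slc7a11 was the only 1 of the 10 to pass the test, and it was lower in 3M-052 nodes by 0.71 on the log2 scale, while 0 were higher and 9 did not pass. That is 10% lower and 0% higher, set against a background of 2.29% of kept probes lower and 2.81% higher. As a median, the 10 genes differed by 0.19 on the log2 scale, against -0.0098 over all kept probes. At an unadjusted limma p under 0.05, 2 of the genes were lower (12.0% of all kept probes) and 0 were higher (8.39%). The groups did not overlap for 0 genes in the higher direction and for 2 in the lower, against 5.57% and 7.10% of all kept probes. Same-numbered nodes of the groups deviated together across probes, and each of the 8 arrays correlated best with its own number in the other group. The fit by group alone leaves this pairing out. A limma fit with the replicate number as a block called 2 of the 10 higher and 1 lower, against 6.33% and 7.70% of all kept probes. The higher ones were Chac1 (adjusted p = 0.012) and Psat1 (0.019), and the lower one was Slc7a11 (0.014).

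**Figure D1:**
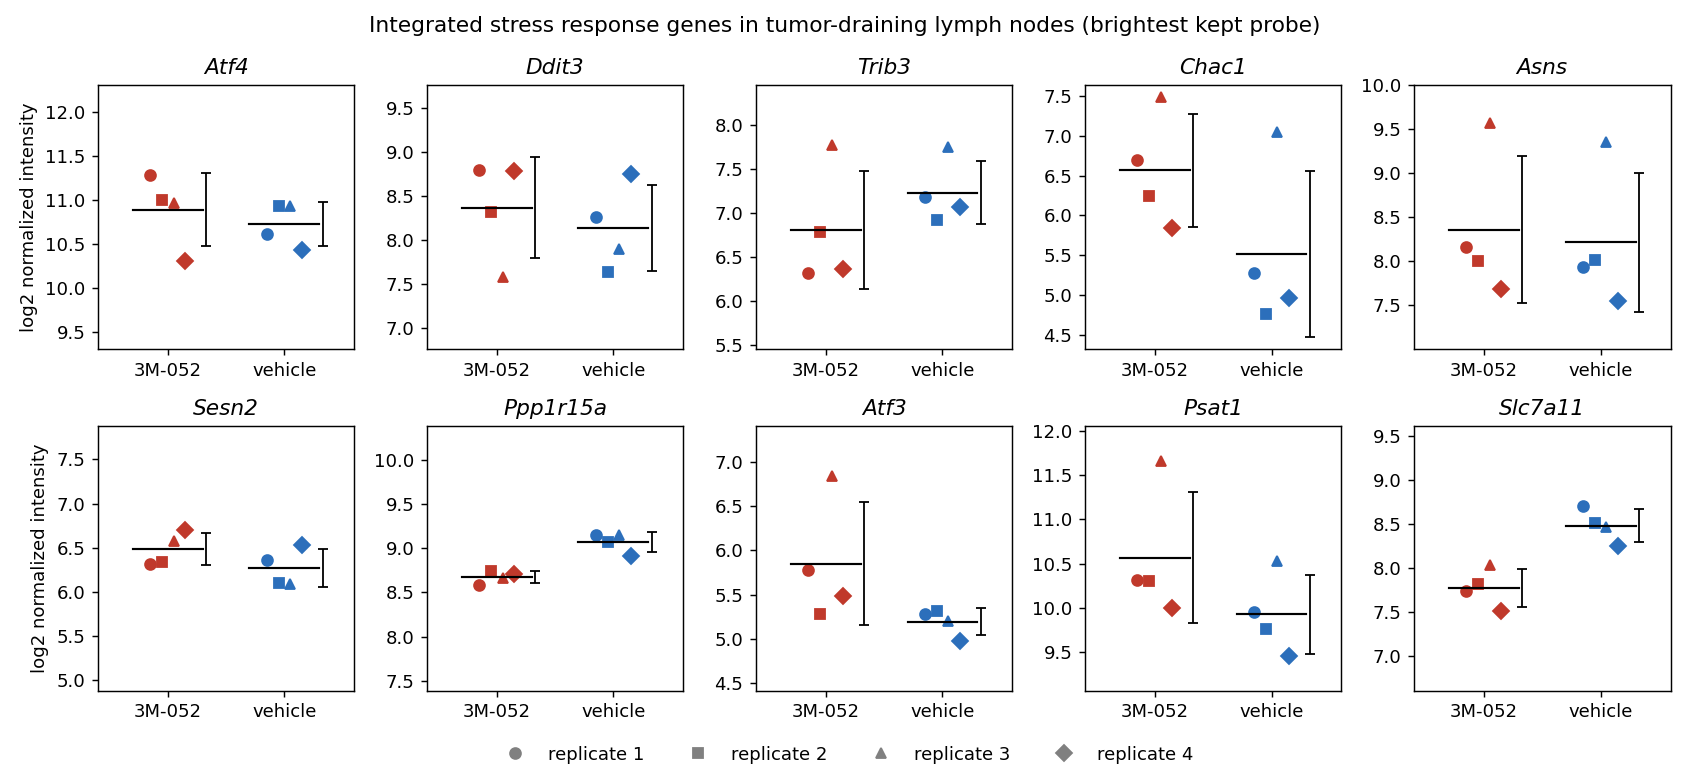
Log2 normalized intensity (vertical axis) of the brightest kept probe of each of the 10 genes, 1 point per node with its shape giving the replicate number, 3M-052 left of vehicle, a horizontal line at the group mean and a bar for the SD (n = 4 each); each panel has its own vertical range. The groups overlapped for 8 genes, and only Ppp1r15a and Slc7a11 had all 4 3M-052 nodes below all 4 vehicle nodes.

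Atf4, the transcription factor that drives the response, was bright in every node and overlapped between the groups. Its brightest probe read 11.29, 11.00, 10.97 and 10.31 in 3M-052 nodes and 10.61, 10.94, 10.93 and 10.43 in vehicle nodes (log2 intensity, replicates 1 to 4). The highest value was from a 3M-052 node and so was the lowest. Replicate 4 was the lowest node of both groups. Its arrays also had the lowest mean intensity before normalization, 331 for 3M-052 and 306 for vehicle, against 398 to 461 on the other arrays. Their part in the Atf4 values was not tested. The difference in means was 0.16 on the log2 scale (SE 0.21, adjusted p = 0.72 with limma), with a 95% interval of -0.29 to 0.62 and a two-sided exact permutation p of 0.51. Leaving out 1 node gave 0.03 (3M-052 replicate 1) to 0.36 (3M-052 replicate 4), and median centering gave 0.37, none of which passed. The other Atf4 probe read 9.92, 9.47, 9.84 and 9.35 in 3M-052 nodes and 9.22, 9.58, 9.49 and 9.32 in vehicle nodes, a difference of 0.25 (SE 0.17, adjusted p = 0.46). The intervals of both probes, -0.29 to 0.62 and -0.13 to 0.62, leave room for modest differences of either sign at the level of the transcript.

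Ddit3, which encodes the pro-apoptotic factor Chop, also overlapped. Its brightest probe read 8.79, 8.31, 7.58 and 8.78 in 3M-052 nodes, against 8.26, 7.63, 7.89 and 8.75 in vehicle nodes. The lowest of the 8 nodes was 3M-052 replicate 3, and within each group the nodes spanned a wider range than the difference in means of 0.23 (SE 0.31, adjusted p = 0.73 with limma, interval -0.44 to 0.90). Leaving out 1 node moved the difference to between 0.06 (vehicle replicate 2) and 0.49 (3M-052 replicate 3), and it was 0.44 without vehicle replicate 4. A second probe gave 8.35, 7.65, 7.18 and 7.40 in 3M-052 nodes and 7.32, 6.84, 7.53 and 7.48 in vehicle nodes, which differed by 0.35 (adjusted p = 0.51). Atf3, a bZIP factor induced downstream of Atf4 and also by inflammatory signals, was dim: 5.78, 5.28, 6.85 and 5.48 in 3M-052 nodes, where it was detected on 4 of 4 arrays, and 5.27, 5.32, 5.20 and 4.97 in vehicle nodes, where it was detected on 3 of 4. 3M-052 replicate 3 stood well above the rest, and the lowest 3M-052 node lay within the range of vehicle. The difference of 0.66 (SE 0.30) did not pass, with an adjusted p of 0.25 by limma and an exact permutation p of 0.057, and it was 0.32 without 3M-052 replicate 3 and 0.36 without background correction.

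The 3 kept genes with values most like those of Atf4 across the 8 arrays, among 10542 genes, were Drd2 (Pearson r = 0.986), Vwa5b2 (0.978) and Ncln (0.965). For Ddit3 they were Selenom (0.993), Ndufaf8 (0.992) and Mosmo (0.991). These r values describe 8 nodes that share their group and replicate number, and none of the 10 genes was among the 6 named.

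Trib3, a pseudokinase that is induced by Atf4 and Chop and dampens them, read 6.32, 6.78, 7.77 and 6.37 in 3M-052 nodes and 7.19, 6.92, 7.75 and 7.07 in vehicle nodes. Replicate 3 was the highest node in both groups, and 3 of the 4 3M-052 nodes lay below every vehicle node. The difference was -0.42 (SE 0.32, adjusted p = 0.51 with limma, exact permutation p = 0.31), -0.74 without 3M-052 replicate 3 (adjusted p = 0.11) and -0.25 without vehicle replicate 3. The probes did not give the same direction: a second, dimmer one, detected on 2 of 4 3M-052 arrays and 3 of 4 vehicle arrays, differed by 0.089 (adjusted p = 0.89), and the remaining probe was detected on 2 of 4 3M-052 arrays and 0 of 4 vehicle arrays and was not kept. Ppp1r15a, the regulatory subunit that directs a phosphatase to eIF2α and so ends the response, read 8.59, 8.74, 8.66 and 8.71 in 3M-052 nodes, against 9.15, 9.07, 9.15 and 8.91 in vehicle nodes. Every 3M-052 node was below every vehicle node, as for 7.10% of all kept probes. The difference of -0.40 (SE 0.14, interval -0.71 to -0.09) had an exact permutation p of 0.029, the smallest that 4 against 4 can give, but did not pass the adjusted test (adjusted p = 0.14 with limma).

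**Figure D2:**
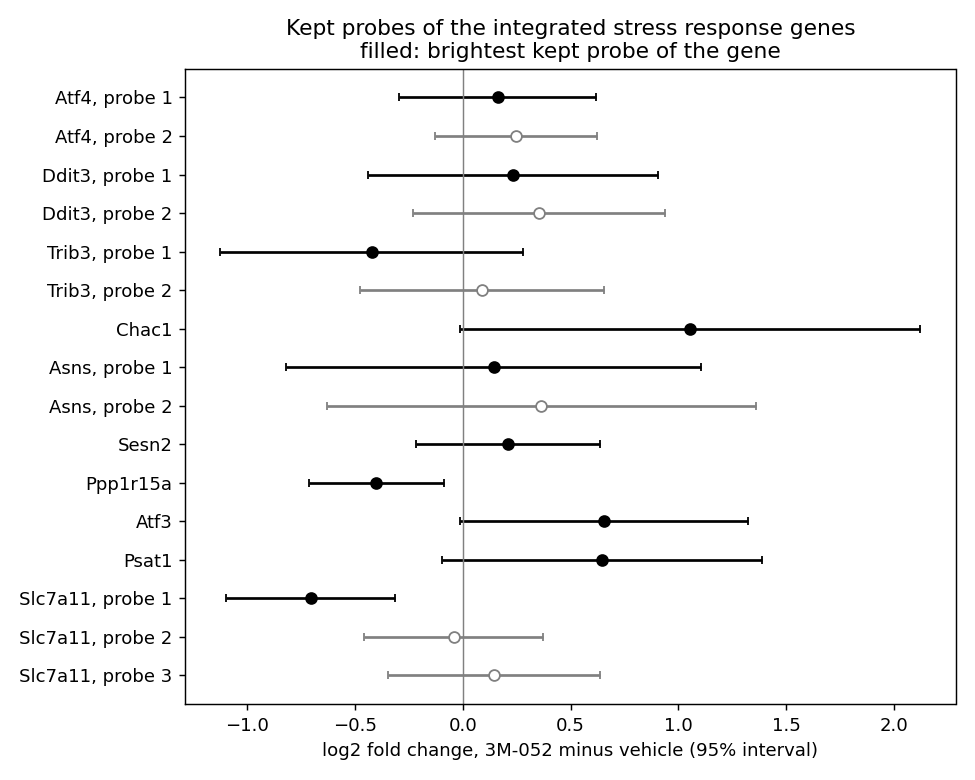
Log2 fold change of 3M-052 over vehicle (horizontal axis) with its 95% interval from limma for each of the 16 kept probes, the brightest probe of a gene listed as probe 1. Most intervals cross 0, and the intervals of the other Slc7a11 probes lie around 0 while that of the brightest lies below it.

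Slc7a11 encodes xCT, the transporter that brings in cystine for glutathione synthesis. Its brightest probe read 7.74, 7.82, 8.04 and 7.51 in 3M-052 nodes and 8.71, 8.51, 8.47 and 8.25 in vehicle nodes. All 3M-052 nodes were below all vehicle nodes, with means of 7.78 ± 0.22 and 8.48 ± 0.19 (SD, n = 4 each), and the probe was 1.63-fold lower (log2 fold change -0.71, SE 0.18, adjusted p = 0.046 with limma, exact permutation p = 0.029). The other probes of the gene did not show this: 1 read 5.93, 5.95, 6.33 and 6.09 in 3M-052 nodes and 6.17, 6.18, 5.87 and 6.25 in vehicle nodes (difference -0.041, adjusted p = 0.94), and the dimmest, detected on 2 of 4 arrays in each group, differed by 0.14 (adjusted p = 0.78). Which of the 3 probes reports the main transcript was not tested. The call was close to the threshold, with the same direction throughout: the adjusted p was 0.12, 0.063 and 0.11 without 3M-052 replicate 1, 2 or 4 and 0.16, 0.14 and 0.10 without vehicle replicate 1, 2 or 3, and the mean of the 3 probes differed by -0.20 (adjusted p = 0.55). With the fat cell marker level as a covariate the difference was -0.70 and the adjusted p 0.30, and 0 of the 10 genes were called in either direction, against 0.802% of all kept probes higher and 0.139% lower. None of the 10 was called with median centering, where Slc7a11 differed by -0.66 (adjusted p = 0.062). T cell markers also moved with the groups, with 4 of 7 lower (57.1%, against 2.29% of all kept probes). Their mean was 10.5 to 10.9 in 3M-052 nodes and 11.3 to 11.7 in vehicle nodes. The 2 measured red cell markers were both lower too, with a mean of 7.73 to 8.55 in 3M-052 nodes and 9.41 to 9.81 in vehicle nodes. Of 6 stroma markers, 3 were lower and 1 was higher, and the list averaged 10.8 to 11.6 in 3M-052 nodes and 11.5 to 11.9 in vehicle nodes. With median centering, 0 T cell markers (median log2 fold change -0.53) and 0 stroma markers were called lower, against 1.53% of all kept probes. The 2 red cell markers were still called lower there. Of 2 keratinocyte markers 0 were called, with a mean of 5.76 to 7.88 in 3M-052 nodes and 7.77 to 8.24 in vehicle nodes. Of 5 melanocyte markers 0 were called, and 4 had a negative log2 fold change. The part of these markers in the Slc7a11 result was not tested.

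Within the 10 genes, Chac1 and Psat1 were the ones whose call changed with the pairing. Chac1, an enzyme that degrades glutathione, read 6.70, 6.24, 7.49 and 5.84 in 3M-052 nodes and 5.28, 4.76, 7.05 and 4.96 in vehicle nodes, where it was detected on 2 of 4 arrays. Every 3M-052 node was above its same-numbered vehicle node, by 1.42, 1.48, 0.44 and 0.88, yet vehicle replicate 3 exceeded 3 of the 3M-052 nodes. The probe was not detected on vehicle replicates 2 and 4 (detection p 0.094 and 0.067). The differences of 1.48 and 0.88 are thus taken against signals not above background. The vehicle arrays alone would not have met the filter for Chac1. The log2 fold change of 1.06 (SE 0.49) gave an adjusted p of 0.25 with limma, of 0.012 with the replicate block and, without vehicle replicate 3, a log2 fold change of 1.57 with an adjusted p of 0.041. Without background correction the log2 fold change was 0.60. Melanocyte markers were high in that same vehicle node, and their part in its Chac1 level was not tested. Psat1, an enzyme of serine synthesis, read 10.31, 10.31, 11.66 and 9.99 in 3M-052 nodes, against 9.95, 9.76, 10.53 and 9.45 in vehicle nodes. It too was higher in each of the 4 pairs, by 0.36, 0.55, 1.14 and 0.54. The log2 fold change of 0.65 (SE 0.34) had an adjusted p of 0.32 with limma, 0.019 with the replicate block, and the log2 fold change was 0.28 without 3M-052 replicate 3.

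Asns and Sesn2 showed small differences. Asns, the asparagine synthetase that is a classic Atf4 target, read 8.16, 8.00, 9.57 and 7.69 in 3M-052 nodes and 7.94, 8.02, 9.35 and 7.55 in vehicle nodes. Replicate 3 stood apart in both groups, and the other nodes lay between 7.55 and 8.16. The difference of 0.14 (SE 0.44, adjusted p = 0.90 with limma, interval -0.82 to 1.11) changed sign to -0.26 without 3M-052 replicate 3 and to -0.079 without vehicle replicate 4. The dimmer Asns probe repeated the order of replicate 3, at 5.89, 6.16, 7.72 and 6.34 in 3M-052 nodes and 5.92, 6.01, 7.34 and 5.38 in vehicle nodes. Sesn2, an inhibitor of mTORC1 under amino acid shortage, read 6.32, 6.34, 6.58 and 6.70 in 3M-052 nodes and 6.36, 6.10, 6.09 and 6.53 in vehicle nodes, a difference of 0.21 (SE 0.20, adjusted p = 0.61).

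For 4 of the 10 genes, the nodes numbered 3 stood above the other nodes whatever the treatment. Asns, Chac1, Psat1 and Trib3 had replicate 3 as the highest node of both groups, which held for 12.0% of all kept probes. Counting any number, 5 of the 10 genes had the same number highest in both groups, against 42.8% of all kept probes. Their lead over the next node of the group was 1.41 for Asns, 0.79 for Chac1, 1.35 for Psat1 and 0.98 for Trib3 in 3M-052 nodes and 1.33, 1.76, 0.58 and 0.56 in vehicle nodes (log2 units, same gene order). Replicate 3 led by 0.5 or more in both groups for 51 probes, or 0.262% of those kept, and by the smaller of their 2 leads Asns ranked 2, Chac1 6, Psat1 27 and Trib3 33 among the 19462. The transcription factors did not show this in both groups: for Ddit3, replicate 3 was 1.21 below the highest 3M-052 node and 0.86 below the highest vehicle node. For Atf4 it was 0.32 below the highest in 3M-052 nodes and within 0.01 of it in vehicle nodes. For Atf3, replicate 3 led the 3M-052 nodes by 1.06 and was 0.12 below the highest vehicle node. The number 3 and the margin of 0.5 were chosen after the values were seen, so the counts, here and for the lists below, are descriptions. What set the 2 nodes numbered 3 apart was not tested. Melanocyte markers averaged 5.98 in 3M-052 replicate 3, within the range of its group, and 10.3 in vehicle replicate 3.

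**Figure D3:**
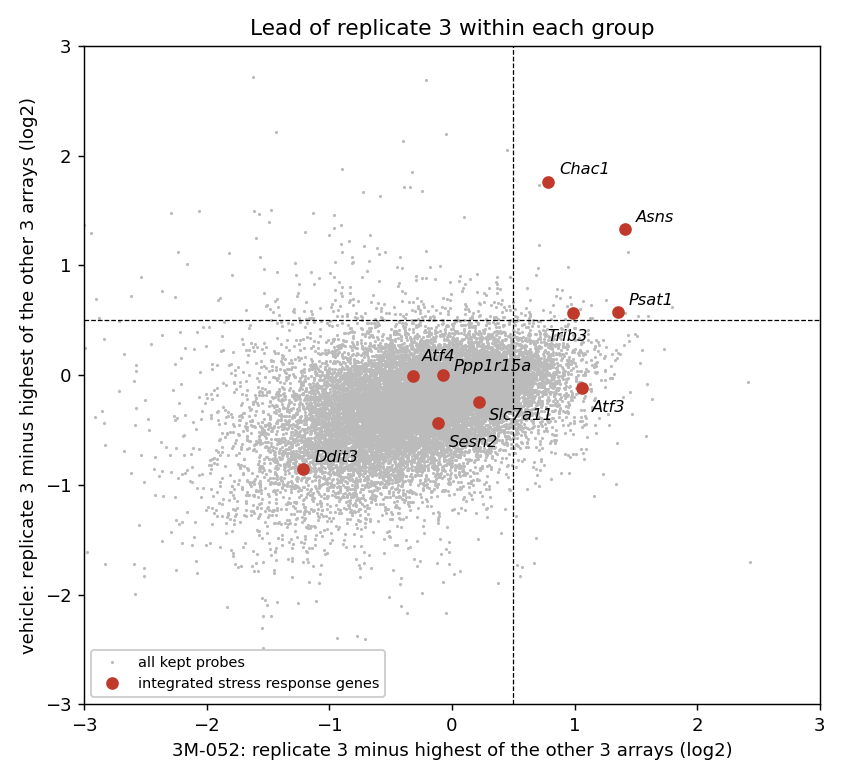
Lead of replicate 3 over the highest other node of its group in 3M-052 nodes and in vehicle nodes (log2 units on both axes), 1 point per kept probe, with the 10 genes labelled; 53 probes beyond 3 log2 units are not drawn. Asns, Chac1, Psat1 and Trib3 lie in the corner where replicate 3 leads in both groups. Replicate 3 led in neither group for Ddit3, Sesn2 and Atf4, with Ddit3 the farthest below.

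Other genes of the pathway, together with bZIP relatives of Atf4 that need not belong to it, were read from 6 lists. The lists hold 104 genes, of which 81 had a kept probe. Among the 81, 3 were higher (3.70%) and 1 was lower (1.23%), against 2.81% and 2.29% of all kept probes, and 77 did not pass, with a median log2 fold change of 0.13. The block fit called 7 higher and 6 lower of the 81, where it called 6.33% and 7.70% of all kept probes. The 7 include Slc7a3, whose probe met the filter only through the 3M-052 arrays and is not counted as support. Higher calls numbered 1 when replicate 1 of either group or replicate 2 of the vehicle group was left out, and lower calls 0 without replicate 1, 2 or 3 of either group. The clearest was Eif2ak2, which encodes PKR and is an interferon-induced gene. It read 10.68, 10.19, 10.92 and 10.75 in 3M-052 nodes, against 8.69, 9.30, 9.33 and 9.86 in vehicle nodes, with no overlap and a log2 fold change of 1.34 (SE 0.24, adjusted p = 0.0086 with limma). The other eIF2α kinases did not pass: Eif2ak3 (PERK) differed by 0.54 (adjusted p = 0.44) and Eif2ak1 (HRI) by 0.17 (adjusted p = 0.64), and 12 of the 13 measured genes of eIF2α signaling, Eif2ak2 being the exception, did not pass. GCN2 had no kept probe with a gene name.

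Among 17 measured bZIP partners and relatives of Atf4, only 1 was called higher (5.88%, against 2.81% of all kept probes). This was Batf2, an interferon-induced factor of the AP-1 group. It read 6.63, 6.24, 6.53 and 6.86 in 3M-052 nodes and 5.43, 5.60, 5.12 and 6.19 in vehicle nodes (log2 fold change 0.98, adjusted p = 0.047 with limma, and 0.065 with median centering). Of 7 amino acid transporters, only 1 was called higher (14.3%, against 2.81% of all kept probes). This was Slc43a1, a carrier of large neutral amino acids, at 8.26, 8.55, 9.43 and 8.22 in 3M-052 nodes and 7.14, 7.54, 7.83 and 7.33 in vehicle nodes (log2 fold change 1.15, adjusted p = 0.034 with limma). Slc7a3, a cationic amino acid transporter singled out after its values were seen, read 5.94, 5.45, 8.35 and 5.46 in 3M-052 nodes and was not above background on any vehicle array. Set against the lowest signal of a detected probe on each vehicle array, or the probe's own where that was higher, it was at least 2.47-fold higher, on a mean that rests largely on 3M-052 replicate 3. Its probe met the filter only through the 3M-052 arrays, so it had to differ, and neither this fold nor its call in the block fit is counted as support.

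The serine, glycine, proline and one-carbon enzymes beside Psat1 had 0 of 5 measured genes past the test in the fit by group alone. The block fit called 2 of the 5 higher and 0 lower, against 6.33% and 7.70% of all kept probes. These were Phgdh and Shmt2, and Shmt2 differed by 0.75 (adjusted p = 0.22 with limma, and 0.042 with the block). Gpt2, which exchanges amino groups between alanine and glutamate, differed by -0.94 (adjusted p = 0.21) and Phgdh, the first enzyme of serine synthesis, by 0.82 (adjusted p = 0.12, and 0.015 with the block). Of the 18 measured cytosolic aminoacyl-tRNA synthetases, which charge tRNAs and include many Atf4 targets, 0 passed, 16 had a positive log2 fold change and the median was 0.20. Cars differed by -0.54 (adjusted p = 0.21) and Mars1 by 0.48 (adjusted p = 0.41), the largest absolute differences of the synthetases. In 13 of the 18, replicate 3 was the highest node of both groups, as in 4 of the 5 serine and one-carbon enzymes, against 12.0% of all kept probes. The number 3 was singled out after the values were seen, and the same number, whichever it was, was highest in both groups for 42.8% of all kept probes. The pattern of replicate 3 did not run through all lists. It held for 5 of 13 genes of eIF2α signaling and 3 of 7 transporters. It held for only 2 of 22 remaining stress targets, 1 of 17 bZIP partners and 0 of 7 genes of glutathione and cystine handling.

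Of the 22 measured genes among the remaining stress targets, 1 was lower and 0 were higher, against 2.29% and 2.81% of all kept probes, with a median log2 fold change of -0.20. Sesn1, a p53-induced relative of Sesn2, was lower, at 11.32, 11.29, 11.08 and 11.58 in 3M-052 nodes and 11.81, 11.88, 11.76 and 11.93 in vehicle nodes (log2 fold change -0.53, adjusted p = 0.046 with limma). With median centering it differed by -0.27 (adjusted p = 0.50). The block fit called 5 of the 22 lower and 0 higher, against 7.70% and 6.33% of all kept probes. The 5 included Ddit4, an mTORC1 inhibitor, and Stc2, a secreted glycoprotein, and these differed by -1.07 (adjusted p = 0.096) and -0.95 (adjusted p = 0.059) without the block. Of 7 genes of glutathione and cystine handling 0 passed, and Gpx4, the lipid peroxide-reducing enzyme, and Nqo1, a target of Nrf2, differed by -0.34 (adjusted p = 0.44) and -0.26 (adjusted p = 0.64). Immediate early genes, which rise when tissue is handled or cells are stimulated, had 0 of 8 past the test. Their mean log2 intensity was 8.88 to 9.53 in 3M-052 nodes and 9.17 to 9.40 in vehicle nodes.

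The Xbp1 and Atf6 arms of the unfolded protein response, read the same way, gave other counts. Of 13 measured genes, 6 were higher in 3M-052 nodes (46.2%, against 2.81% of all kept probes) and 0 were lower, with a median log2 fold change of 0.75, against 0.19 for the 10 genes of the integrated stress response. Creld2, a secreted endoplasmic reticulum protein, had the largest difference, at 10.88, 11.15, 10.45 and 10.78 in 3M-052 nodes and 9.19, 8.80, 8.96 and 9.34 in vehicle nodes (log2 fold change 1.74, adjusted p = 0.00039 with limma). Edem1, which sends misfolded glycoproteins to degradation, differed by 1.59 (adjusted p = 0.00067), Sdf2l1, a chaperone cofactor, by 1.28 (adjusted p = 0.021), and the disulfide isomerase Pdia4 by 1.04 (adjusted p = 0.012). Whether this list differs from the 10 genes was not tested beyond these counts. Plasma cell markers moved with it: their mean was 9.38 to 9.68 in 3M-052 nodes and 7.99 to 8.42 in vehicle nodes. Of 11 measured markers, 8 were higher (72.7%, against 2.81% of all kept probes), and the marker list shares Xbp1 and Creld2 with the arms. The 8, the share and the means include Derl3 and Tnfrsf17, each detected on 4 of 4 3M-052 arrays and 1 of 4 vehicle arrays. These met the filter through the group where they were high, so the count, the share and the means are descriptions only. Mzb1 and Txndc5, detected on 4 of 4 arrays in each group, differed by 1.61 and 1.09 (adjusted p = 0.0028 and 0.00076 with limma). A negative log2 fold change was seen for 0 of the 11. The part of the plasma cell markers in the result was not tested.

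**Figure D4:**
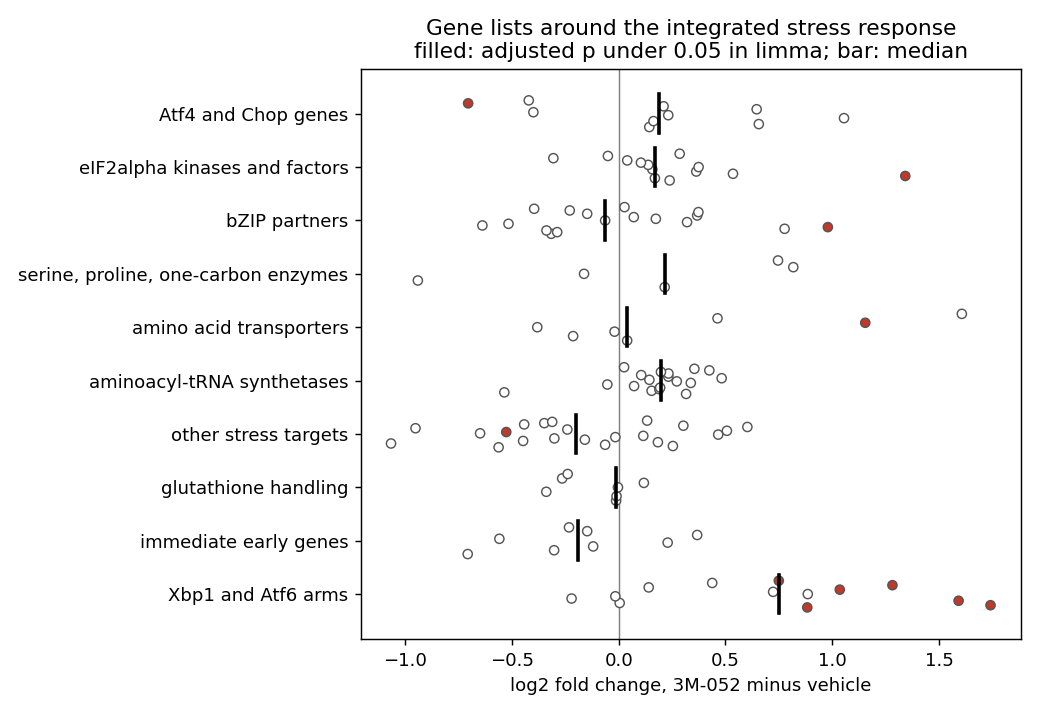
Log2 fold change of 3M-052 over vehicle (horizontal axis) for each measured gene, 1 row per list, with filled points for genes past the limma test and a line at the median of the list. The 10 stress response genes spread on both sides of 0 around a median of 0.19, while the Xbp1 and Atf6 arms lie mostly to the right around 0.75.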

How the data were processed

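RNA of 8 draining lymph nodes (100 ng each, amplified in a pair of rounds) was read on Illumina mouse bead arrays (Ref-6, version 2), 1 per mouse. The authors deposited a table of intensity values from GenomeStudio (version not given in the sources used here) with a detection p-value for each of 45281 probes and array. A second table of 21765 probes, also intensity, had been normalized by the authors in a way not given here. It was taken as linear, and its medians were 115, 123, 123 and 118 in 3M-052 nodes and 125, 126, 123 and 119 in vehicle nodes. It served as an alternative, and log2 fold changes from both tables correlated at 0.980 across probes.

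The neqc function of limma 3.58.1 (R 4.3.3) subtracted background estimated from detection p-values, added an offset of 16, applied quantile normalization and took log2. Probes detected at p under 0.05 on at least 4 of 8 arrays were kept (19462). The group difference was fitted by lmFit, moderated by eBayes (trend on) and Benjamini-Hochberg adjusted over all kept probes at 0.05. The script was checked on simulated data. Exact two-sided permutation tests (SciPy 1.17.1) used the 4 against 4 nodes. Replicate numbers come from the labels. Same-numbered nodes correlated at 0.19, 0.43, 0.25 and 0.57 in their deviations from the group means, all over 0.1, so the numbers were taken as pairs and the fit with the replicate number as a block was an alternative.

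Probes were named from the platform annotation, updated by gene identifier: 18216 had 1 name, 8 had several and were left unnamed, 3541 had none, and the 23516 probes outside the second table are unnamed here. A gene was represented by its brightest kept probe. The 10 genes, the lists and the tests were chosen with earlier results of these data known. Named are all 10 genes, up to 4 genes past the threshold per list and direction, or else the 2 largest differences, and the 3 genes most like Atf4 and Ddit3. Shmt2 is named for its call in the block fit. Of the marker lists not given in the report, B cells averaged 10.1 to 10.4 in 3M-052 and 10.2 to 10.5 in vehicle nodes, macrophages and monocytes 9.76 to 10.2 in 3M-052 and 9.34 to 9.84 in vehicle nodes, and neutrophils 6.63 to 8.93 in 3M-052 and 6.98 to 7.77 in vehicle nodes. Array number limits the precision.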

Additional observations from a re-analysis of the deposited data

How the results depend on the processing

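With the replicate block, 2 of the 10 genes were higher (Chac1, Psat1), 7 and 6 of the wider genes were higher and lower, and 1232 and 1499 of all probes. The 7 include Slc7a3, which had to differ. None of the 10 was lower (0, against 1) with median centering, no filter on dim probes, the methods' t-test after Benjamini-Hochberg, the mean of all probes of a gene, or the fat cell marker covariate, which was added after seeing the data. The unadjusted methods' t-test gave 2 lower. Among the wider genes, lower calls were 0 with median centering, no filter, no variance trend, the adjusted t-test, the mean of probes and the fat covariate, 2 with array weights and 8 with the unadjusted t-test. Higher calls were 0 with the adjusted t-test and the fat covariate and 6 with the unadjusted t-test. Over all probes, higher and lower calls were 838 and 869 with array weights, 118 and 98 with the adjusted t-test, 1486 and 2176 with the unadjusted one and 156 and 27 with the fat covariate, and 255 were lower with no filter. Leaving out 1 node at a time gave 0 to 1 higher (1 without vehicle replicate 3) and 0 to 1 lower of the 10 genes, 1 to 4 higher and 0 to 2 lower of the wider genes, and 283 to 670 higher and 118 to 683 lower of all probes. The fewest higher probes came without 3M-052 replicate 1 (283) and the fewest lower without vehicle replicate 2 (118).

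Of 198 single-gene alternatives, 181 kept direction and side of the threshold, 11 lost the call (all of Slc7a11), 3 gained it (Chac1 with the block and without vehicle replicate 3, Psat1 with the block) and 3 turned the direction, all for Asns: -0.16 with array weights, -0.079 when vehicle replicate 4 was left out and -0.26 when 3M-052 replicate 3 was (range over single nodes left out, -0.26 to 0.52). The cause was not tested. Array weights were lowest for 3M-052 replicate 3 (0.370). Chac1, Atf3 and the dimmer probes of Trib3 and Slc7a11 were near background, which limits their fold changes.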

Other observations

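The 51 probes that replicate 3 led by 0.5 log2 units or more in both groups also held genes outside the stress response, all chosen after their values were seen. Bcat1, which transfers amino groups from branched-chain amino acids, led by 1.44 in 3M-052 nodes and 1.12 in vehicle nodes. Genes of DNA replication (Mcm2, Mcm3, Mcm5, Mcm6, Mcm10, Cdc6 and Top2a) and of sterol synthesis (Sqle and Lss) were on the same list. No test was made on these genes.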
